A study of Mus musculus with 8 samples.

Results

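Keratin genes were described across the epithelial types they mark in the mouse vomeronasal organ, the paired tube at the base of the nasal septum with which mice detect pheromones. Members were the protein-coding genes whose GENCODE M21 symbol is Krt followed by digits alone, which gave 49 of the 48831 genes counted. Whole-tissue RNA of the vomeronasal epithelium had been sequenced from C57BL/6J mice aged 8 weeks, with no other allele or agent given, in 8 libraries that formed 4 groups of 2 by sex and preparation. The 4 non-flushed pools (2 male, 2 female) each held tissue of 2 mice, and the 4 flushed libraries (males 1 and 3, females 2 and 3) each came from 1 mouse. The labels describe the latter as flushed, which clears blood from the vessels, whereas the protocol text shared by all 8 libraries has every mouse flushed with heparin; the description of each library was used here. The file headers place the pools and the flushed libraries in different run folders and lanes, so preparation, pooling and run cannot be told apart.

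Keratins are the intermediate filament proteins of epithelial cells, and a filament is built from pairs of one acidic type I and one basic type II chain. The pair made by a cell follows its type. Krt8 and Krt18 mark simple, single-layered epithelium, Krt5 with Krt14 or Krt15 the basal cells of layered epithelium, Krt4 and Krt13 the upper layers of moist mucosa, and Krt1, Krt2 and Krt10 the upper layers of epithelium that cornifies, such as skin. The vomeronasal tube has a sensory epithelium of neurons, supporting cells and basal cells, a non-sensory epithelium with ciliated cells, and glands. The 49 genes were sorted by this textbook knowledge into 6 simple, 3 basal, 2 activated and appendage, 5 cornified, 4 mucosal, 1 cornea and 22 hair and root sheath keratins, with 6 left unclassed.

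Total counts were between 18763557 and 22096792 in the pools and between 22101913 and 24965088 in the flushed libraries, so that 3 counts, taken as the floor of detection, corresponded to 0.12 to 0.16 counts per 1000000 (CPM) in a library. This floor covers counting error only. Markers of vomeronasal sensory neurons were present in all libraries, with Omp, the olfactory marker protein, between 341 and 484 CPM, whereas Trpc2, the transduction channel of these neurons, was listed at 0 counts in all 8; whether its reads were assigned to another identifier was not tested, so this 0 is not a measure of its expression. Within the keratins 2 libraries stood apart in several genes: male pool 1, which held nearly all counts of the cornified keratins, and flushed female 3, which held more Krt15 and Krt17 than the other flushed mice. Others stood apart in a single keratin, such as male pool 2 in Krt76. The counts of keratins called, and several single results that rest on male pool 1 or flushed female 3, are given with and without that library.

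The keratin RNA of this tissue was mainly that of simple epithelium. Simple keratins made up 73.0 to 88.7% of the summed keratin level in RPKM, read counts scaled to exon length and library size. Basal keratins took 5.18 to 14.3%, mucosal keratins 0.472 to 6.94%, and activated and appendage keratins 1.42 to 4.66%. Hair and root sheath keratins stayed under 1% in every library, at 0.332 to 0.789%. Cornified keratins took 0.0388 to 0.153% in 7 libraries and 9.40% in male pool 1. The 49 members together held 0.127 to 0.137% of the counts of the pools and 0.0874 to 0.12% of those of the flushed libraries. The shares in this paragraph leave out Krt6a and Krt6b, whose symbols end in a letter. Krt6a ranged from 0.65 to 41.0 CPM and Krt6b from 0.29 to 16.1 CPM across the libraries. In 20 keratins the mean over all libraries reached 1 CPM, and 4 hair and root sheath keratins (Krt35, Krt39, Krt71 and Krt73) had 0 counts in all 8, which allows at most 0.0172 CPM over the pooled libraries.

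**Figure D1:**
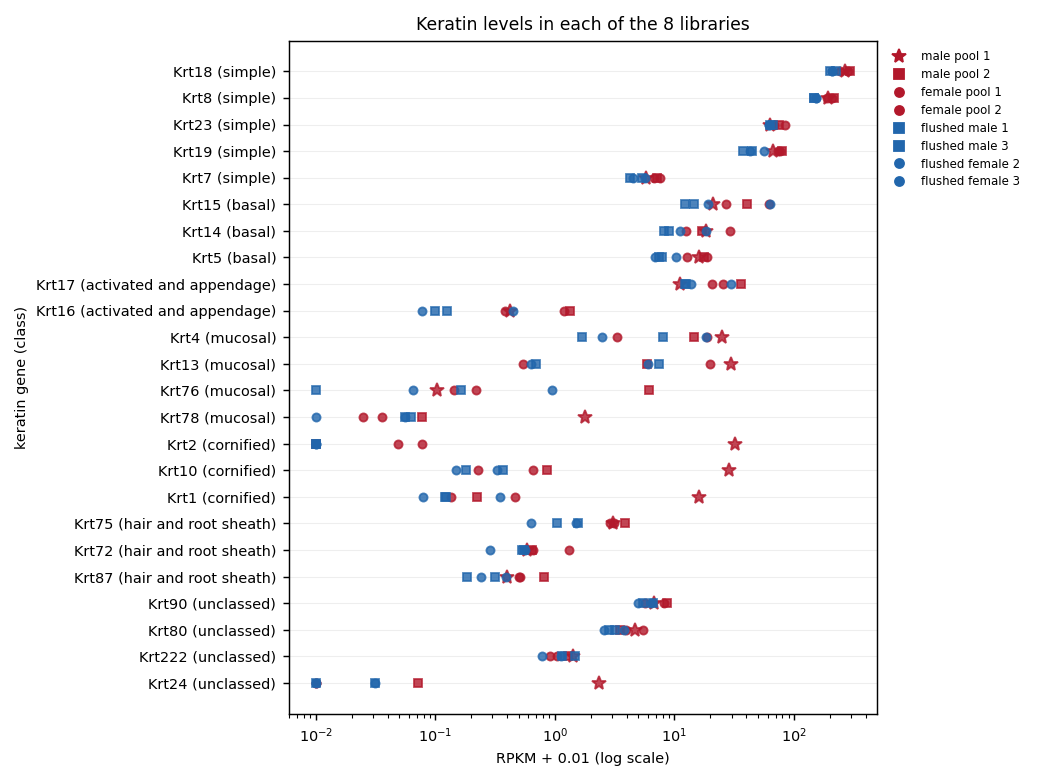
Level of each keratin with a mean of 1 CPM or more, and of Krt16, Krt87, Krt24 and Krt78, in the 8 libraries. The horizontal axis is RPKM plus 0.01 on a log scale, each point is 1 library, red marks pools, blue marks flushed single mice and the star marks male pool 1. Krt8 and Krt18 lie at 146 RPKM or more everywhere, while Krt2, Krt10, Krt1, Krt24 and Krt78 are far higher in male pool 1 than in the other 7 libraries.

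The family sits in a pair of clusters (GRCm38). On chromosome 11, 25 type I genes lay between 99232761 and 100269871, all on the minus strand. On chromosome 15, 24 genes lay between 101347444 and 102032027, 20 of them on the minus strand, and these were 23 type II genes and Krt18, the one type I gene there. Krt8 and Krt18 are neighbours 23.7 kb apart, and Krt2 and Krt1 lie 27.3 kb apart. Members of one cluster differed widely in level: Krt8 reached 146 to 214 RPKM in a cluster that also holds Krt71 and Krt73, both at 0 counts.

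The comparison of preparations asked which keratins differed between the flushed single mice and the non-flushed pools. Of 22 keratins that passed the filter on low counts, 12 were lower in the flushed mice and 0 were higher (edgeR quasi-likelihood F test, Benjamini-Hochberg adjusted p under 0.05 over all 20601 genes tested). Over all genes tested, 22.9% were called lower and 22.6% higher. All 22 keratin differences were negative, with a median log2 difference of -0.71, against a median of -0.017 over all genes tested, of which 51.7% were negative. In 8 of the 22, every flushed library lay below every pool in CPM, against 20.4% of all genes tested, and in 0 of the 22 did every flushed library lie above. The 27 keratins that did not pass the filter were not tested, and Krt1, Krt16 and Krt76 passed it with only 1 flushed library over its limit, so a difference in these 3 is partly set by the filter. In whole tissue, fewer cells of a type and less RNA per cell cannot be told apart.

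By class, the calls lower in flushed mice covered 4 of 5 simple keratins tested (median log2 difference -0.42), 2 of 3 basal (-0.76), 1 of 2 activated and appendage (-1.34), 2 of 2 cornified (-4.25), 0 of 3 mucosal (-1.87), 2 of 4 hair and root sheath (-0.87) and 1 of 3 unclassed (-0.32). Both cornified calls, Krt1 and Krt10, rested on male pool 1 and were lost without it. Over all classes the count was 9 of 22 without male pool 1, where 18.4% of all genes tested were called lower. It was 19 of 25 without flushed female 3, where 19.7% of all genes were. Without flushed male 1 it was 7 of 25, near the 20.0% of all genes called lower there. Without both male pool 1 and flushed female 3, a setting chosen after seeing the data, it was 13 of 22, against 15.6% of all genes. With 1 library left out, the filter asked for only 1 library over its limit. Krt2, Krt24 and Krt78, over it in male pool 1 alone, were therefore tested unless that pool was left out. The counts out of 25 include these genes, so they are partly set by the filter. Krt5, Krt7, Krt8, Krt18, Krt19 and Krt75 kept their call whichever single library was left out.

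**Figure D2:**
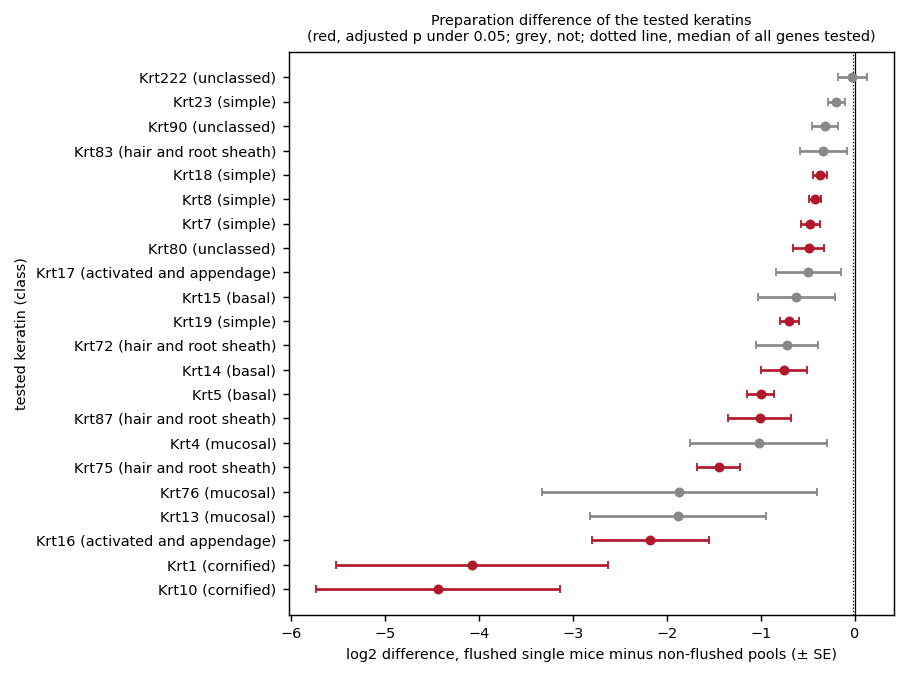
Log2 difference (flushed single mice minus non-flushed pools) of the 22 keratins tested, with SE from the edgeR fit over 8 libraries. Red points passed an adjusted p of 0.05 and grey points did not; the dotted line is the median of all genes tested. All 22 points lie left of 0, and the bars are longest for Krt1, Krt10 and Krt76, whose level was set by 1 or 2 libraries.

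Simple keratins were the most abundant class in every library. Their summed level was 624.5 ± 43.8 RPKM in the pools and 472.5 ± 11.6 RPKM in the flushed mice (mean ± SD, n = 4 each), and the groups did not overlap. Krt18, the type I keratin of simple epithelium (chromosome 15, 102028180 to 102032027, plus strand), was the highest of all keratins at 202 to 296 RPKM. Its level was 375 and 414 CPM in male pools 1 and 2, 336 and 393 CPM in female pools 1 and 2, 311 and 282 CPM in flushed males 1 and 3, and 292 and 288 CPM in flushed females 2 and 3. Every pool lay above every flushed library, and Krt18 was 1.29-fold lower in flushed mice (log2 difference -0.37 with an SE of 0.07, edgeR adjusted p = 0.0021).

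Krt8, its type II partner (chromosome 15, 101996698 to 102004482, minus strand), lay at 146 to 214 RPKM. It had 349 and 387 CPM in the male pools, 339 and 374 CPM in the female pools, 265 and 263 CPM in flushed males 1 and 3, and 276 and 274 CPM in flushed females 2 and 3. The flushed libraries spanned only 263 to 276 CPM, and Krt8 was 1.34-fold lower in them (log2 difference -0.42 with an SE of 0.06, edgeR adjusted p = 0.0005). Some Krt8 reads were divided with other loci in 6 libraries, and Krt8-ps, a processed pseudogene outside the members, held 376 to 658 counts per library. The ratio of Krt8 to Krt18 in RPKM stayed between 0.66 and 0.78 in all 8 libraries.

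Krt19 and Krt7, a type I and a type II keratin of ducts and glands, fell as well. Krt19 measured 123, 146, 140 and 135 CPM in male pools 1 and 2 and female pools 1 and 2, and 83.3, 69.9, 79.6 and 104 CPM in flushed males 1 and 3 and flushed females 2 and 3. It was 1.62-fold lower in flushed mice with no overlap (log2 difference -0.70 with an SE of 0.10, edgeR adjusted p = 0.00041). In the same library order Krt7 measured 41.0, 50.2, 53.8 and 47.8 CPM in the pools and 29.8, 37.4, 31.5 and 40.01 CPM in the flushed mice. It was 1.39-fold lower (log2 difference -0.47 with an SE of 0.10, edgeR adjusted p = 0.004), again without overlap, with 41.0 CPM in the lowest pool and 40.01 CPM in the highest flushed mouse. Krt7 lay at 0.088 to 0.14 of the Krt19 level in RPKM. That ratio is lowered by the counted exon length, which was 7055 bases for Krt7 and 1855 bases for Krt19. In CPM the genes lay closer, at 41.0 against 123 in male pool 1 and 40.01 against 104 in flushed female 3.

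Krt23, a type I keratin placed among the simple ones, came next after Krt8 in mean level, at 61.1 to 84.7 RPKM. It had 99.1, 116, 106 and 133 CPM in the pools and 99.0, 104, 95.7 and 96.0 CPM in the flushed mice. The groups overlapped, and its difference of -0.20 (SE 0.09) did not pass (edgeR adjusted p = 0.084). Without male pool 1 it passed narrowly (-0.24, edgeR adjusted p = 0.049). Krt20, a keratin of the gut lining and of Merkel cells, had at most 6 counts in a library.

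**Figure D3:**
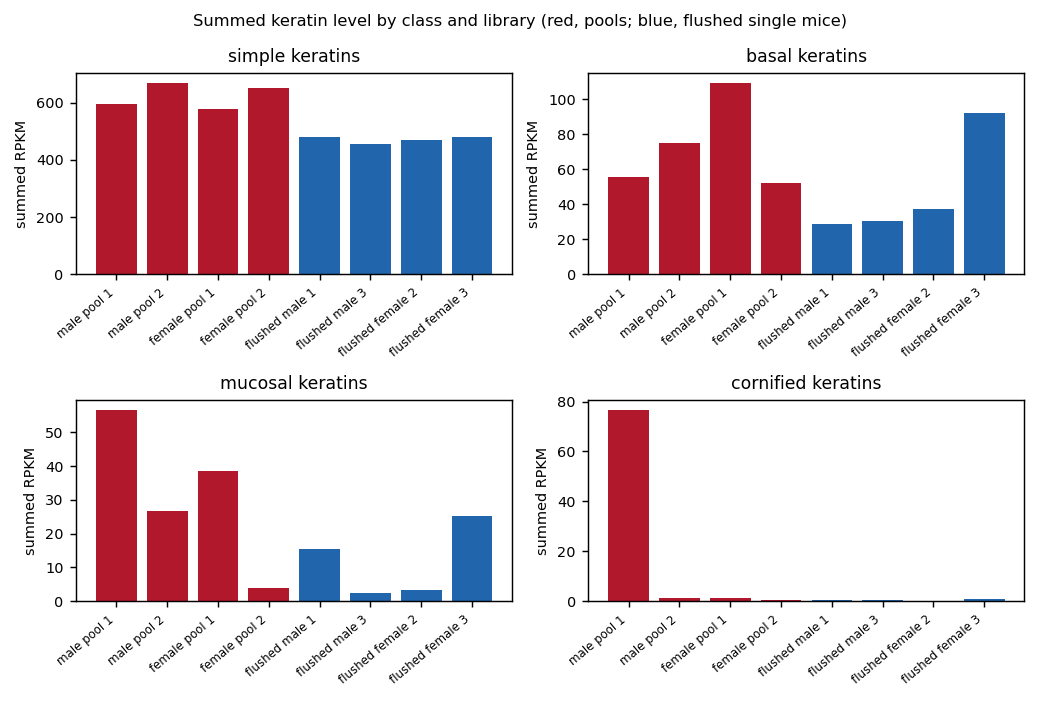
Summed RPKM of the simple, basal, mucosal and cornified keratins in each library (bars from 0; red, pools; blue, flushed single mice). Simple keratins form 2 level groups of 579 to 670.4 RPKM in pools and 457 to 482 RPKM in flushed mice; basal and mucosal keratins vary from library to library within both groups; cornified keratins reach 76.7 RPKM in male pool 1 and at most 1.18 RPKM elsewhere.

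Basal keratins were lower in most flushed mice, with flushed female 3 as the exception. Their summed level was 55.2, 75.2, 109 and 52.0 RPKM in the pools and 28.7, 30.6, 37.0 and 91.9 RPKM in flushed males 1 and 3 and flushed females 2 and 3. Krt5, the type II keratin of basal cells (chromosome 15, 101707070 to 101712898, minus strand), separated the groups. It had 35.3 and 38.5 CPM in the male pools, 41.2 and 27.7 CPM in the female pools, 16.2 and 17.3 CPM in the flushed males and 15.2 and 22.4 CPM in flushed females 2 and 3. Every flushed library lay below every pool, a 2.01-fold lower level (log2 difference -1.01 with an SE of 0.15, edgeR adjusted p = 0.00042).

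Its type I partners overlapped between the groups. Krt14 had 32.0, 30.1, 50.7 and 22.1 CPM in the pools and 15.7, 14.5, 19.7 and 32.1 CPM in the flushed mice, with flushed female 3 inside the range of the pools. It was 1.69-fold lower (log2 difference -0.76 with an SE of 0.24, edgeR adjusted p = 0.027), a call that was lost without any 1 of 6 libraries (adjusted p of 0.11 at most), among them male pool 1 (-0.67, adjusted p = 0.08). Krt14 kept its call without flushed female 3 (-0.99, edgeR adjusted p = 0.0082) and lost it with the tool DESeq2 (adjusted p = 0.051). Krt15, a type I keratin of basal cells, had 37.0, 71.5, 109 and 47.2 CPM in the pools, 21.8 and 25.6 CPM in the flushed males, 33.4 CPM in flushed female 2 and 112 CPM in flushed female 3. The last of these was the highest of all 8 libraries, and the difference did not pass (-0.62, SE 0.41, edgeR adjusted p = 0.24). Without flushed female 3 it did (-1.22, edgeR adjusted p = 0.0094).

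The basal pairs were accordingly less even than Krt8 and Krt18. Krt5 stood at 0.56 to 1.03 of the Krt14 level in RPKM and at 0.16 to 0.77 of the Krt15 level. The lowest value of both ratios was in flushed female 3, where Krt15 lay above every pool, Krt14 within their range and Krt5 below all of them. Other genes were high in that library too. The ciliated cell list summed to 956 CPM there, 482 to 593 CPM in the other flushed mice and 597 to 853 CPM in the pools. Among flushed mice the cornified envelope list (39.1 against 16.2 to 22.8 CPM) and Krt6a (24.0 against 0.65 to 2.60 CPM) were also highest there. The myoepithelial list (3392 against 3697 to 4146 CPM) and the list of other intermediate filaments (789 against 801 to 890 CPM) were lowest there. The part of any of these in the basal keratin levels was not tested.

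Krt17 and Krt16, type I keratins of skin appendages and of activated keratinocytes, were also high in flushed female 3 beside the other flushed mice. Krt17 had 17.3, 55.7, 39.1 and 32.2 CPM in the pools, 19.4 and 18.9 CPM in the flushed males, 21.3 CPM in flushed female 2 and 45.7 CPM in flushed female 3. Male pool 1 was the lowest of all 8 and flushed female 3 the second highest, so the groups overlapped. Krt16 was low, at 0.59 to 2.10 CPM in the pools, 0.11 to 0.18 CPM in 3 flushed mice and 0.69 CPM in flushed female 3. It was 4.52-fold lower in flushed mice (log2 difference -2.18 with an SE of 0.62, edgeR adjusted p = 0.016), a call lost without male pool 2 (adjusted p = 0.058) or female pool 1 (0.061), which held the most of it. Without flushed female 3 the log2 difference was -3.22 (edgeR adjusted p = 0.0038). Reads of Krt16 were divided with similar loci in 5 libraries.

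Mucosal keratins varied widely within both preparations. Krt13, the type I keratin of moist stratified mucosa, had 54.1 and 10.8 CPM in male pools 1 and 2, 36.1 and 0.97 CPM in female pools 1 and 2, 13.4 and 1.26 CPM in flushed males 1 and 3, and 1.14 and 10.9 CPM in flushed females 2 and 3. It ranged 55.7-fold across the libraries. Krt4, its type II partner, had 53.5, 31.2, 39.6 and 6.98 CPM in the pools and 17.1, 3.60, 5.30 and 38.90 CPM in the flushed mice. Both keratins were low in female pool 2, flushed male 3 and flushed female 2, and neither passed the test between preparations.

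The balance of this pair differed between libraries. Krt4 was 0.84 to 1.09 of Krt13 in RPKM in male pool 1, female pool 1 and flushed male 1, and 2.44 to 6.14 of it in the other 5 libraries. Krt76, a type II keratin of the hard palate and gums, was found mainly in 1 library, with 14.2 CPM in male pool 2 against 0.22 to 0.49 CPM in the other pools, 2.15 CPM in flushed female 3 and at most 0.36 CPM in the other flushed mice. Male pool 2, the highest in Krt76, had 0 counts of Krt2.

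**Figure D4:**
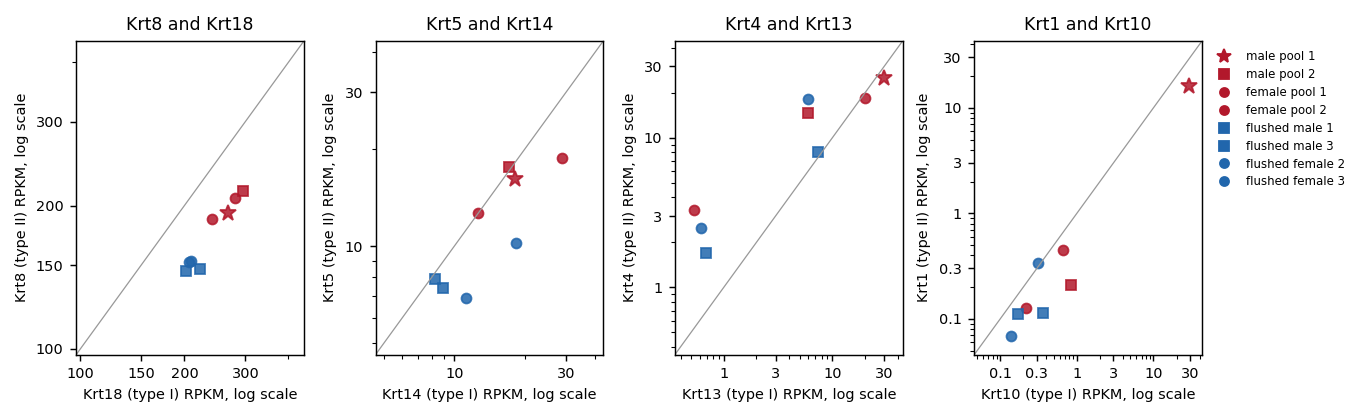
RPKM of 4 type II keratins (vertical) against their type I partners (horizontal) in the 8 libraries, both axes on a log scale; the line marks equal levels, red pools, blue flushed single mice and the star male pool 1. Krt8 lies below the line at 0.66 to 0.78 of Krt18 throughout, Krt4 lies up to 6.14 times above Krt13, and Krt1 and Krt10 are both far higher in male pool 1 than in any other library.

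Cornified keratins were found almost only in male pool 1. Krt2, a type II keratin of the upper layers of skin (chromosome 15, 101810689 to 101818169, minus strand), had 1546 counts there (83.6 CPM, 32.0 RPKM), 0 counts in 5 other libraries and at most 4 counts in the remaining 2. Krt10, the type I keratin of these layers (chromosome 11, 99385254 to 99389364, minus strand), had 60.8 CPM in male pool 1, 1.78 CPM in male pool 2, 1.37 and 0.46 CPM in the female pools, 0.75 and 0.36 CPM in flushed males 1 and 3, and 0.29 and 0.67 CPM in flushed females 2 and 3. Its type II partner Krt1 (chromosome 15, 101845426 to 101850794, minus strand) had 39.1 CPM in male pool 1, 0.52 CPM in male pool 2, 1.11 and 0.31 CPM in the female pools, 0.28 and 0.27 CPM in the flushed males, and 0.17 and 0.82 CPM in flushed females 2 and 3. Krt10 in male pool 1 was 34.2 times its next highest library. In male pool 1 the 3 genes reached 15.98 to 32.0 RPKM, against 16.1 RPKM for the basal keratin Krt5 in the same library.

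The other cornified keratins did not take part. Krt9, the keratin of palm and sole skin, had at most 1 count in a library, and so did Krt77, a type II keratin of skin and sweat ducts. Krt24, a type I keratin left unclassed, had 80 counts in male pool 1 and at most 2 in any other library. Krt78, a type II keratin of the mucosal class that was chosen after its values were seen, had 112 counts in male pool 1 and at most 4 elsewhere. Basal keratins were not high in male pool 1: its Krt5 and Krt14 lay within the range of the other pools, and its Krt15 was the lowest of the 4.

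Between preparations Krt10 was 21.6-fold lower in flushed mice (log2 difference -4.43 with an SE of 1.30, edgeR adjusted p = 0.018) and Krt1 16.9-fold lower (-4.08, SE 1.44, edgeR adjusted p = 0.041). Both rested on male pool 1: without it Krt10 differed by -1.23 (edgeR adjusted p = 0.06) and Krt1 by -0.62 (edgeR adjusted p = 0.44). Within females, without that pool in the difference, Krt10 differed by -0.94 (edgeR adjusted p = 0.74) and Krt1 by -0.52 (edgeR adjusted p = 0.86). The fit took its spread from all 8 libraries, so both adjusted p-values still depend on male pool 1. Either call was also lost without flushed male 1 or flushed male 3 (adjusted p of 0.17 at most), and that of Krt1 without female pool 1 (0.055) or flushed female 2 (0.068). With the tool limma-voom neither gene passed (adjusted p = 0.099 for Krt10 and 0.19 for Krt1). With DESeq2 Krt10 passed (adjusted p = 0.026) and Krt1 did not (0.058). Krt2 was not tested in the fit of all 8 libraries, since 1 library alone was over the filter.

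The promoters of these genes are shown because the genes were high in the same library. RefSeq promoters (GRCm38.p6) were matched for 35 of the 49 keratins, 36 promoters in all, and Krt1 had no entry. Each line gives the 80 bases before the start on the minus strand of the gene, 5′ to 3′, and capitals mark the letters TATAA or ATAAA (overlapping matches joined) found 40 to 16 bases before the start. Krt2, Krt10, Krt24 and Krt78 were high in male pool 1, Krt13 varied over all libraries, and Krt5 is the basal keratin that separated the preparations.
Krt2: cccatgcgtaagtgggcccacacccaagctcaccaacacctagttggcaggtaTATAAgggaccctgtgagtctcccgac
Krt10: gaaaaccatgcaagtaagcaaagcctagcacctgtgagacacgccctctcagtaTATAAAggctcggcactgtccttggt
Krt24: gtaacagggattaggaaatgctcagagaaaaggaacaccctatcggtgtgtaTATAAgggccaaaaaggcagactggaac
Krt78: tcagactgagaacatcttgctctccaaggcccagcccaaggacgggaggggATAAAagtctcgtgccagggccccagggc
Krt13: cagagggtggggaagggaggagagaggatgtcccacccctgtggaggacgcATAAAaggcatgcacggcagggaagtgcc
Krt5: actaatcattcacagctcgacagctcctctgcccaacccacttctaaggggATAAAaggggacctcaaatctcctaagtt

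These stretches are chr15:101818170-101818249 for Krt2, chr11:99389365-99389444 for Krt10, chr11:99285263-99285342 for Krt24, chr15:101954288-101954367 for Krt78, chr11:100121567-100121646 for Krt13 and chr15:101712906-101712985 for Krt5, whose RefSeq start differs from that of GENCODE M21. One of the TATAA or ATAAA letter runs stood in that window in 24 of the 36 keratin promoters, against 5.72% of all 32851 promoters in the table. Searching both strands left the keratin count at 24 and gave 8.11% of all promoters. The match was shared by keratins that were high in male pool 1 and by keratins that were not.

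Other genes of cornified cells were high in the same pool. The cornified envelope is the protein shell that replaces the membrane of cornifying cells, and a list of 30 of its genes and their partners summed to 228 CPM in male pool 1 and 16.2 to 41.2 CPM in the other 7 libraries. In male pool 1, 24 of the 30 were at their highest, and 8 of the 30 had under 3 counts in each other library. Among those 8, Flg2 and Sprr1b had only 1 and 2 counts in male pool 1 itself, under the floor, and Casp14 had 3. The share of all genes at their highest in male pool 1 was not computed. In all flushed mice 9 of the 30 had 0 counts. Hrnr, a filament-binding protein of the S100 fused type, had 43.3 CPM in male pool 1 and at most 2.01 CPM elsewhere, and its relative Rptn had 53.7 CPM against at most 9.07 CPM, in male pool 2. Flg (filaggrin), which bundles keratin filaments, had 2.92 CPM there and at most 1 count in any other library, and Lor (loricrin), the main envelope protein, had 3.41 CPM against at most 0.26 CPM. Ivl (involucrin), an early envelope protein, was not set apart, at 0.32 CPM in male pool 1 and 0.40 CPM in female pool 1.

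In the test between preparations 3 of 13 envelope genes tested were lower in flushed mice, Hrnr, Rptn and Cdsn, and 0 were higher, with a median log2 difference of -1.29. This share is near the 22.9% of all genes called lower, and Hrnr and Cdsn passed the filter on low counts with 0 flushed libraries over its limit and Rptn with 1, so these calls are partly set by the filter. Without male pool 1 the count was 1 lower of 13, with a median of -0.48. The part of cornified tissue in the levels of the other keratins of male pool 1 was not tested. The hair follicle list was not higher there: its 12 genes summed to 21.9 CPM in male pool 1 and 21.5 to 29.6 CPM in the other libraries, most of it Lhx2, a transcription factor also made outside hair, and 4 of the 12 had 0 counts throughout.

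**Figure D5:**
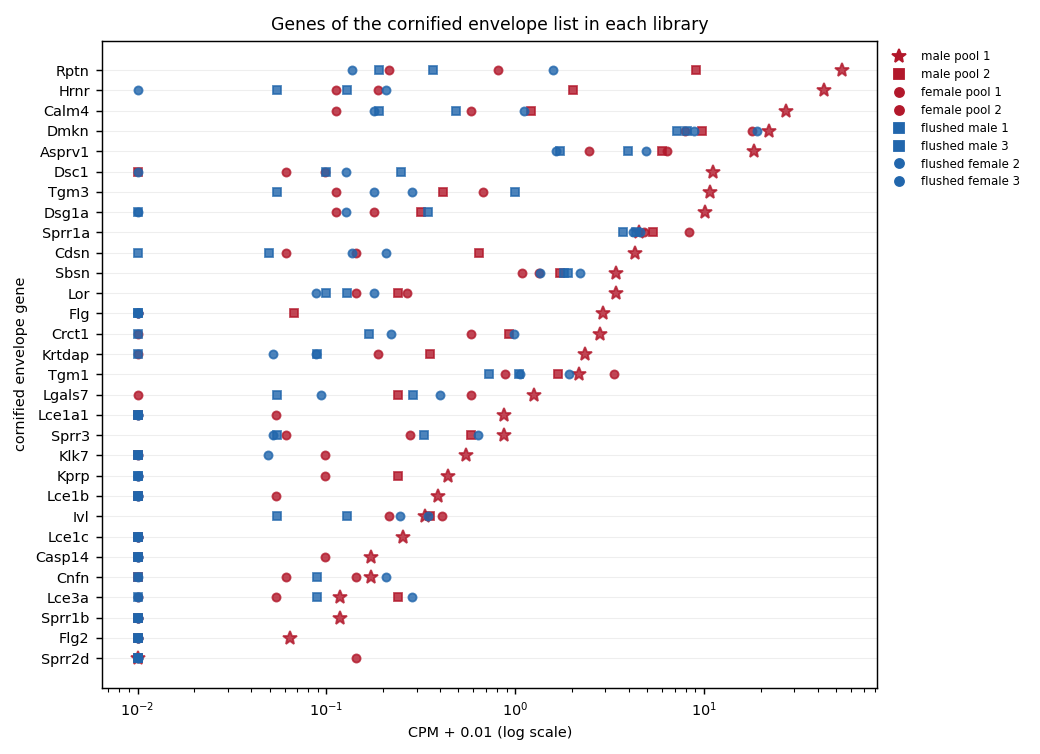
CPM plus 0.01 (log scale) of the 30 genes of the cornified envelope list in the 8 libraries, sorted by male pool 1 (star); red marks pools and blue flushed single mice. Rptn, Hrnr and Calm4 reach 53.7, 43.3 and 27.1 CPM in male pool 1, and 24 of the 30 genes have their highest value there.

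Hair and root sheath keratins were scarce. Krt75, the type II keratin of the companion layer of the hair follicle, was the highest of them and separated the groups, with 9.999, 12.5, 10.1 and 9.45 CPM in the pools and 5.09, 3.37, 2.02 and 4.86 CPM in the flushed mice. It was 2.74-fold lower (log2 difference -1.45 with an SE of 0.23, edgeR adjusted p = 0.00065). Krt72, a type II keratin of the inner root sheath, had 1.14, 1.26, 1.28 and 2.61 CPM in the pools and 1.03, 1.08, 0.55 and 1.10 CPM in the flushed mice, which did not overlap and did not pass the test. Krt87, a type II hair keratin, had 0.70 to 1.46 CPM in the pools and 0.32 to 0.70 CPM in the flushed mice, just without overlap. It was 2.02-fold lower (log2 difference -1.01 with an SE of 0.34, edgeR adjusted p = 0.031), and the call was lost without any 1 of 6 libraries (adjusted p of 0.13 at most). Its reads were divided with similar genes in 5 libraries, as were those of Krt81, and those of Krt83 and Krt86 in 6, so the levels of these hair keratins are uncertain. The keratins of the class that were not tested had at most 0.34 CPM in a library, and the cornea keratin Krt12 at most 0.32 CPM.

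Among the unclassed keratins, 3 were present in all libraries. Krt80, a type II keratin of many epithelia, had 8.22, 6.14, 9.61 and 6.95 CPM in the pools and 4.99, 5.67, 4.58 and 6.70 CPM in the flushed mice, and flushed female 3 overlapped the pools. It was 1.41-fold lower (log2 difference -0.49 with an SE of 0.16, edgeR adjusted p = 0.03), which was lost without male pool 1 (-0.40, edgeR adjusted p = 0.11) or any 1 of 3 other libraries (female pool 1, flushed male 1 and flushed female 2; 0.091 at most). Krt90 ranged from 12.5 to 22.0 CPM and Krt222, a keratin-like gene, from 2.55 to 4.80 CPM, and neither passed.

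Other genes of the same epithelia did not all move with their keratins; the counts that follow stand beside 22.9% of all genes called lower and 22.6% called higher. Of 13 genes of simple epithelium, 7 were lower and 1 higher in flushed mice (median log2 difference -0.34). St14, a membrane protease of epithelia, fell from 96.1 to 108 CPM in the pools to 66.2 to 75.7 CPM in the flushed mice. Epcam, an adhesion molecule of simple epithelial cells, had 234 to 262 CPM in the pools and 229 to 257 CPM in the flushed mice and did not pass (log2 difference -0.047 with an SE of 0.063, edgeR adjusted p = 0.57). Ehf, an epithelial transcription factor, rose from 112 to 153 CPM to 191 to 249 CPM (log2 difference 0.71 with an SE of 0.12, edgeR adjusted p = 0.00082).

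Among 12 genes of basal epithelium, 5 were lower and 1 higher (median -0.26). Trp63, the transcription factor that defines basal cells, was the one that rose, from 14.8 to 18.2 CPM in the pools to 23.1 to 33.8 CPM in the flushed mice (log2 difference 0.76 with an SE of 0.12, edgeR adjusted p = 0.00057), while Krt5 fell in the same libraries. Lamb3, a laminin chain of the basement membrane, fell from 26.4 to 28.7 CPM to 18.8 to 22.8 CPM (log2 difference -0.41 with an SE of 0.07, edgeR adjusted p = 0.0014).

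Of 14 desmosome and plakin genes, whose proteins anchor keratin filaments, 5 were lower and 1 higher (median -0.029). Jup, the desmosomal plaque protein plakoglobin, fell from 92.8 to 103 CPM to 64.1 to 76.5 CPM (log2 difference -0.54 with an SE of 0.06, edgeR adjusted p = 8.9e-05), and Dsp, the plaque protein that binds keratin, did not pass (-0.043, SE 0.088, edgeR adjusted p = 0.72). Of 12 other intermediate filament genes tested, 6 were lower and 0 higher (median -0.49), among them Lmna, a nuclear lamin (-0.60, SE 0.07, edgeR adjusted p = 0.0001), while Vim, the filament of connective tissue and supporting cells, did not pass (-0.19, SE 0.07, edgeR adjusted p = 0.051). Sensory neuron genes had 2 lower and 2 higher of 11 tested, ciliated cell genes 2 lower and 1 higher of 11, and myoepithelial genes 1 lower and 0 higher of 5; the lower shares of these 3 lists are near that of all genes.

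Males and females were compared next. No keratin passed the test by sex: 0 of 22 were called with edgeR, where 0.116% of all genes tested did, and 4 had an unadjusted p under 0.05. DESeq2 and limma-voom also called 0, with 3 and 2 at an unadjusted p under 0.05. The 4 under that p with edgeR were Krt10 (log2 male minus female 3.92 with an SE of 1.28, edgeR adjusted p = 0.47), Krt1 (3.29, SE 1.41, adjusted p = 0.61), Krt15 (-1.07, SE 0.41, adjusted p = 0.55) and Krt222 (0.47, SE 0.15, adjusted p = 0.48). The first 2 rested on male pool 1, without which Krt10 differed by 0.56 and Krt1 by -0.70, the opposite direction. Krt15 had 38.96 ± 22.6 CPM in males and 75.4 ± 41.0 CPM in females (SD, n = 4 each), and the groups overlapped. That difference rested in part on flushed female 3, without which it was -0.51 (edgeR adjusted p = 0.86). Without male pool 2 the sex comparison called 1 keratin, Krt2, whose counts came from male pool 1.

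The interaction of sex and preparation, which asks whether the preparation difference differed between the sexes, called 0 of 22 keratins with edgeR (1 at an unadjusted p under 0.05) and 0 with DESeq2 (3 at an unadjusted p under 0.05). Over all genes tested, 0.0485% were called. Within males 9 and within females 6 of the 22 keratins were lower in flushed mice, at 2 libraries per group, where 11.1% and 12.6% of all genes were, and Krt5, Krt8, Krt18, Krt19 and Krt75 were called in both sexes.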

How the data were processed

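Whole-tissue polyA-selected RNA had been sequenced as stranded single reads of 100 nucleotides, per the labels' protocols. The submitters' processing notes name STAR 2.7.1a and the build GRCm38 (mm10). Per the file headers, the authors counted exon reads by gene with featureCounts 1.6.5 and split multi-mapping reads evenly, so the deposited values are expected counts. Near-identical keratins therefore share reads.

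Symbols came from GENCODE M21 by gene identifier (48422 genes). Counts were rounded and tested with edgeR 4.0.16 (R 4.3.3) after TMM scaling and filterByExpr on the 4 groups, with sex and preparation as additive terms and the interaction in a further fit. Every adjusted p is from this test over 20601 genes unless another tool or setting is named, and the SE is the log2 difference divided by the square root of F. With libraries left out, the fit and adjustment were repeated over the genes then past the filter (21374 without male pool 1, 21229 without flushed female 3). Differences within 1 sex or 1 preparation came from a separate edgeR fit of the 4 groups. CPM and RPKM use unrounded counts and the TMM-scaled library size, and folds come from the fit. Alternatives included DESeq2 1.42.0 and limma-voom 3.58.1.

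Keratins with a mean of 1 CPM or more are described by their levels; a log2 difference is given for keratins past the threshold at any level (Krt16 and Krt87 lie under 1 CPM) and the 3 highest of the simple, basal and cornified classes. Other keratins under 1 CPM appear by range or count, Krt24 for its counts in 1 library, and Krt78 was chosen after its values were seen. Of each further list, the 3 genes with the smallest p and the 3 highest in CPM could be named, besides fixed markers (Lor, Flg and Ivl); Calm4 was chosen after its values were seen. The members and lists were chosen with earlier results of these data known. Krt6a and Krt6b lie outside the members by the rule, and Krt85 was not analysed here.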

Additional observations from a re-analysis of the deposited data

Results flagged for a closer look

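Within the 4 pools and within the 4 flushed mice, the highest or lowest library of each of 20 keratins with a mean of 1 CPM or more was set against Dixon's 95% critical value for 4 samples. Chance passes about 1 in 20 such groups where the values are normally distributed. The CPM were not transformed, and the chance rate for such values was not measured. Krt1, Krt2 and Krt10 reach that mean only through male pool 1, and Krt76 only through male pool 2, so the choice of keratins itself favours those libraries standing apart. Male pool 1 lay far above the other pools in Krt2 (83.6 CPM against 0.18 CPM at most), Krt10 (60.8 against 1.78 CPM) and Krt1 (39.1 against 1.11 CPM). Male pool 2 lay above them in Krt76 (14.2 against 0.49 CPM) and female pool 2 in Krt72 (2.61 against 1.28 CPM). Flushed female 3 lay above the other flushed mice in Krt15 (112 against 33.4 CPM), Krt17 (45.7 against 21.3 CPM), Krt76 (2.15 against 0.36 CPM) and Krt1 (0.82 against 0.28 CPM). Flushed female 2 lay below them in Krt72 (0.55 against at least 1.03 CPM).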

How the results depend on the processing

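The count of 12 of 22 keratins lower in flushed mice became 22 of 45 without a filter on low counts. There 9938 of 32514 genes were called in either direction, against 9377 of 20601 with the filter. The keratin count was 6 of 22 within females, where 12.6% of all genes were called lower. With 1 library left out it ranged from 7 of 25 (without flushed male 1, 20.0% of all genes) to 19 of 25 (without flushed female 3, 19.7%). By sex the count of 0 of 22 became 10 of 45 without a filter, where 784 of 32514 genes were called, against 24 of 20601 with it. It was 0 to 1 when 1 library was left out. Without a filter the prior degrees of freedom of edgeR's fit were infinite, against a median of 5.26 with it, which makes those adjusted p-values very small. Other scalings, rounding, a mean CPM of at least 1, DESeq2 and limma-voom kept the preparation count between 9 and 12. The mean summed level of simple keratins in flushed mice was 491 RPKM on the raw total count, against 472.5. The sex difference of Krt1 turned to -0.70 without male pool 1 (-0.70 to 4.47 with any 1 library left out), to -0.87 within flushed mice and to -0.029 without male pool 1 and flushed female 3; the last setting was chosen after seeing the data. No paired analysis was possible because the labels give the pools no replicate number and the flushed males and females share only 1. Levels under 0.12 to 0.16 CPM lie below the floor of 3 counts in a library.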
